A study of Drosophila melanogaster with 4 samples.

Results

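The genes described here encode the proteins of the cytoplasmic ribosome of Drosophila melanogaster. They were taken from the RefSeq gene table as the protein-coding genes whose symbol starts with RpL or RpS followed by a digit, together with RpLP0, RpLP1, RpLP2 and sta, and without the mitochondrial mRp genes. This gave 92 of 13962 protein-coding genes, 53 for the large and 39 for the small subunit. For each gene, the question was whether open chromatin was called at its ends in pupal wings, and whether this differed when the nucleosome remodeler subunit Osa was targeted for degradation.

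Open chromatin was measured by FAIRE-seq, which sequences the nucleosome-depleted DNA that stays in the aqueous phase when crosslinked chromatin is extracted with phenol. All 4 libraries came from wings of female pupae with osa-GFP on both homologues. This allele tags Osa, the ARID protein that marks the BAP form of the Brahma complex. All libraries also carried UAS-Nslmb-vhhGFP, which sends GFP-tagged proteins to the proteasome. The Osa-deGrad genotype (2 libraries) also carried the wing driver nub-GAL4, and the control genotype (2 libraries) lacked it. A pool of 40 wings made up each library, from animals raised at 23 °C, moved to 29 °C as wandering larvae and dissected at 24 to 36 h after puparium formation. The files hold no measure of Osa protein, so the degradation itself was not checked here, and the share of dissected cells in which the driver acts is not given in the sources used here. The labels do not say that replicates came from separate crosses, so their spread may be purely technical.

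A ribosome is built from a small subunit, which reads the messenger RNA, and a large subunit, which joins amino acids. Each carries ribosomal RNA and a set of proteins made in equal amounts, so the genes for these proteins are among the most strongly and evenly transcribed genes of growing cells. In flies, many of them are known as Minute loci, since loss of a single copy delays growth and gives thin bristles, and wing disc cells that carry such a loss are outcompeted by normal neighbours. Some ribosomal proteins have an additional gene copy, often used in the germline.

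The 4 peak lists differed in length, with 13959 and 17048 peaks in Osa-deGrad 1 and 2 and 13953 and 18007 in control 1 and 2. Read depth is unknown from these files, and a missing peak is not evidence of closed chromatin. As a check of the tissue, all 8 wing genes on a marker list (nub, vg, sd, ap, bs, salm, rn and Dll) had a gene-end peak in every list. Of the markers of other cell types, 0 of 3 hemocyte, 2 of 3 muscle, 2 of 3 neuron and glia, 1 of 2 tracheal and 0 of 2 fat body genes did. Over all protein-coding genes the share was 34.8%. With so few markers, these counts do not show which cells other than wing cells were in the pools. A peak at a gene end does not measure the gene's transcription.

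Nearly all cytoplasmic ribosomal protein genes had open chromatin at an end. A gene was counted as having a peak when a summit lay within 500 bp of either of its ends. By this measure 88 of the 92 genes had a peak in at least 1 list, against 61.3% of all protein-coding genes, and 66 (71.7%) had a peak in all 4, against 34.8%. Peaks were in 3 lists for 14 genes, in 2 lists for 6 and in 1 list for 2. The subunits were alike in this count, with a peak in all lists for 38 of 53 large-subunit genes (71.7%) and 28 of 39 small-subunit genes (71.8%). Of the 73 mitochondrial ribosomal protein genes, 43 (58.9%) had a peak in all lists and 71 in at least 1. No test was run between these gene sets, because genes are not replicates of a condition.

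**Figure D1:**
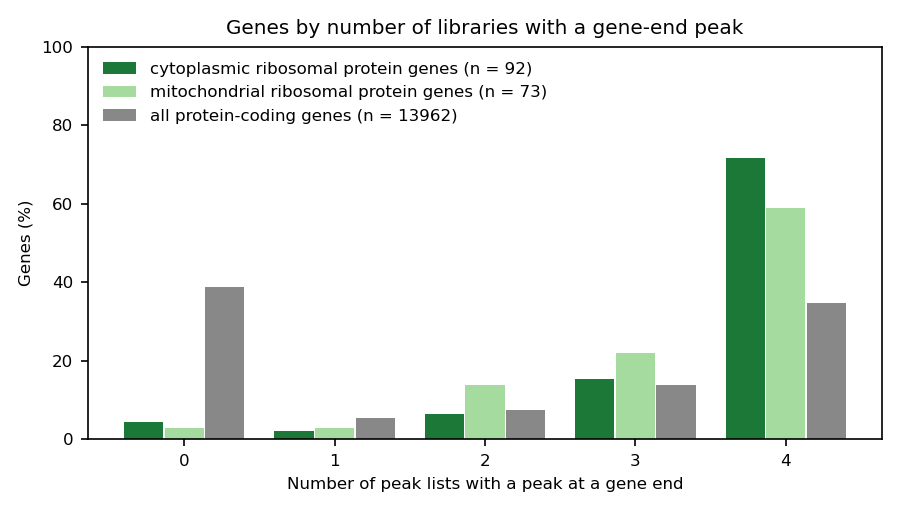
The share of genes (y axis, percent) is plotted by the number of peak lists with a summit within 500 bp of a gene end (x axis, 0 to 4), for the cytoplasmic ribosomal protein genes, the mitochondrial ones and all protein-coding genes. Of the cytoplasmic set 71.7% stand at 4 lists and 4.35% at 0, against 34.8% and 38.7% of all genes.

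Genes that work with the ribosome also mostly had peaks. Of 15 translation factor genes, 10 had a peak in all lists and 1 in none. Those in all lists included eEF1alpha1, which brings aminoacyl-tRNA to the ribosome, at a median percentile of 78.0 over the lists, and Rack1, a scaffold on the small subunit, at 75.7. The gene with no peak was eIF4A, the helicase that unwinds messenger RNA for initiation. Of 14 ribosome assembly genes, 9 had a peak in all lists and 0 in none. The box C/D snoRNP protein gene nop5 ranked at 95.2, Fib, which encodes the methyltransferase of the same particle, at 85.2, and NHP2, an H/ACA snoRNP gene, at 13.1.

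Peaks at ribosomal protein genes mostly sat just outside 1 end of the gene. The median distance from the strongest gene-end summit to the nearer end was 52 and 42 bp in the Osa-deGrad libraries and 69 and 49 bp in the controls. Over all protein-coding genes with a peak it was 93, 80, 108 and 84 bp in the same order. The summit lay outside the gene for most members, and 14 of 79, 19 of 86, 18 of 69 and 20 of 86 had it inside. These are 17.7%, 22.1%, 26.1% and 23.3%, against 25.6%, 22.6%, 28.3% and 22.7% of all genes with a peak, so in the last 3 libraries the shares lay close to those of all genes. In 57 genes (62.0%) exactly 1 end had a peak in every list, against 31.1% of all protein-coding genes, and in 8 genes (8.70%) both ends did, against 2.72%. These shares are over all genes of a set, with or without a peak, and members more often had a peak in every list. They therefore do not show that 1 open end rather than both is particular to the members. Among the 66 genes with a peak in all lists, the strongest peak was at the same end in every list for 55. The gene table gives no strand, so whether that end is the start of transcription was not tested, and "promoter" is not used for these peaks.

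**Figure D2:**
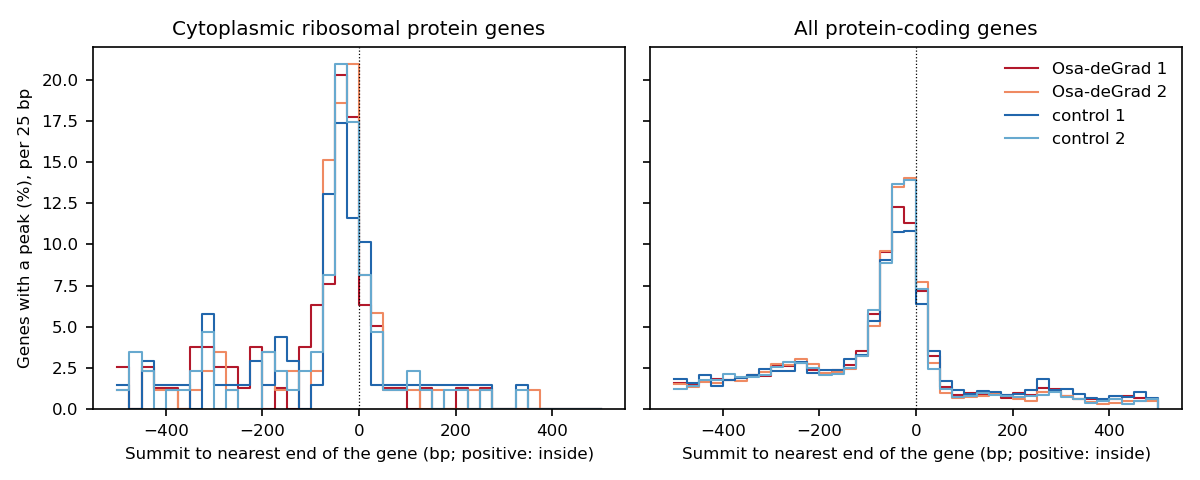
The position of the strongest gene-end summit (x axis, bp from the nearer end of the gene, negative outside and positive inside) is plotted as the percent of genes with a peak per 25 bp (y axis), with 1 line per library, for cytoplasmic ribosomal protein genes and for all protein-coding genes. In both panels the summits pile up just outside the gene end, and the medians of the distance are 42 to 69 bp for the ribosomal protein genes against 80 to 108 bp for all genes.

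The genome around these genes is dense, and some of the peaks lay closer to a neighbour. The strongest summit was nearer to an end of another protein-coding gene for 22 of 79 members in Osa-deGrad 1, 22 of 86 in Osa-deGrad 2, 19 of 69 in control 1 and 19 of 86 in control 2. When only peaks nearest to the gene's own end were counted, a choice made after the values were seen, 48 of the 92 genes (52.2%) had a peak in all lists, against 23.2% of all protein-coding genes. By this count 9 had none in any list, against 45.5% of all genes. The subunits were less alike here, with such a peak in all lists for 30 of 53 large-subunit genes (56.6%) and 18 of 39 small-subunit genes (46.2%). Of peaks so assigned, 84.8% and 88.0% in the Osa-deGrad and 78.9% and 84.6% in the control libraries lay within 100 bp of the end, against 62.1% to 70.4% over all genes.

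The genes without a peak were mostly additional copies. In all 4 lists RpL37-2, RpL22-like, RpL10Aa and RpL13A had no summit within 500 bp. RpL22-like, which serves in the male germline, had its nearest summits at 29533 and 1464 bp in the Osa-deGrad libraries and 42553 and 1554 bp in the controls. Its partner RpL22 was open in every list. RpL10Aa (3R, 15037366 to 15038149) stood far from any peak, with the nearest summit between 52078 and 53894 bp away. RpL37-2, the partner of RpL37-1, had its nearest at 20739, 2854, 20763 and 20735 bp. RpL13A (3R, 5624474 to 5625947) is the exception, since it is the single gene for its protein on this list. It has 2 snoRNA genes within its span. Its nearest summits were at 1441 and 4335 bp in the Osa-deGrad libraries and 3346 and 4343 bp in the controls. Among peaks nearest to the gene's own end, RpS15Ab, RpS19b, RpS28a, RpS28-like and RpL24-like joined these 4 genes, so 8 of the 9 without such a peak are additional or look-alike copies.

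In several of the 12 gene pairs compared, the copies differed in the number of lists with a peak. RpL10Ab, RpL37-1 and RpL22, the partners of genes without a peak, were open in all lists with median percentiles of 50.2, 74.2 and 85.3. In Osa-deGrad 2 and both controls the strongest RpL37-1 summits lay 379 to 429 bp from the gene and 141 to 191 bp from CG9095. Peaks nearest to the own end of RpL37-1 were in 3 lists, all but Osa-deGrad 2. A percentile here is the rank of a peak's −log10 q within its own list, so it describes that list and shows no change between lists of different length. RpS5a, the widely used copy of a small-subunit gene, ranked at 63.5 and 68.2 in the Osa-deGrad libraries and 57.5 and 59.4 in the controls. RpS5b, the copy used in the ovary, had a single peak, at 23.3 in Osa-deGrad 2. RpS10b ranked at 43.5, 46.2, 8.79 and 43.1 in Osa-deGrad 1 and 2 and control 1 and 2, while RpS10a had a peak in control 2 alone, at 57.9. That RpS10a summit lay 357 bp from the gene end.

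Several additional copies had peaks that lay closer to a neighbour. RpS28a (3R, 30022345 to 30022648) had some of the highest ranks of all members, at 97.2 and 91.0 in the Osa-deGrad libraries and 88.5 and 96.0 in the controls. Its summits lay 118 to 323 bp from RpS28a but 2 to 199 bp from Mgat2, a glycosyltransferase gene. RpS19b, a germline copy, had summits 335 to 415 bp away, which lay 13 to 47 bp from CG5854. RpL34b, open in all lists at a median of 60.7, had its strongest summits 0 to 24 bp from CG34117, and its partner RpL34a was open in 3 lists at a median of 24.6. RpL34b also had peaks nearest to its own end in 3 lists, at 67.1 in Osa-deGrad 2 and 27.4 and 60.5 in control 1 and 2. RpL34a had such a peak in 1 list. RpL24-like, whose yeast counterpart is an assembly factor of the large subunit, had summits 253 to 309 bp away and 97 to 153 bp from CG5276. The principal copies RpS28b, RpS19a and RpL24 each had a peak nearest to their own end in every list.

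The copies RpS14a (X, 7933742 to 7934677) and RpS14b (X, 7934898 to 7935792) lie side by side and share the region between them. RpS14a ranked at 72.1, 80.2, 60.6 and 78.4 in Osa-deGrad 1 and 2 and control 1 and 2, with summits 30 to 61 bp from RpS14b. These genes are near-identical in coding sequence and the peak names mention a q5 filter, so reads inside them could be lost or split and their values are uncertain. For RpL7, open at 58.4 to 87.0, and RpL7-like, open at 24.8 to 59.1, both genes had a peak in every list. The pair RpS15Aa and RpS15Ab had peaks in 3 and 2 lists, and the RpS15Ab summits were 6 and 9 bp from Lsm10, an snRNP gene.

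**Figure D3:**
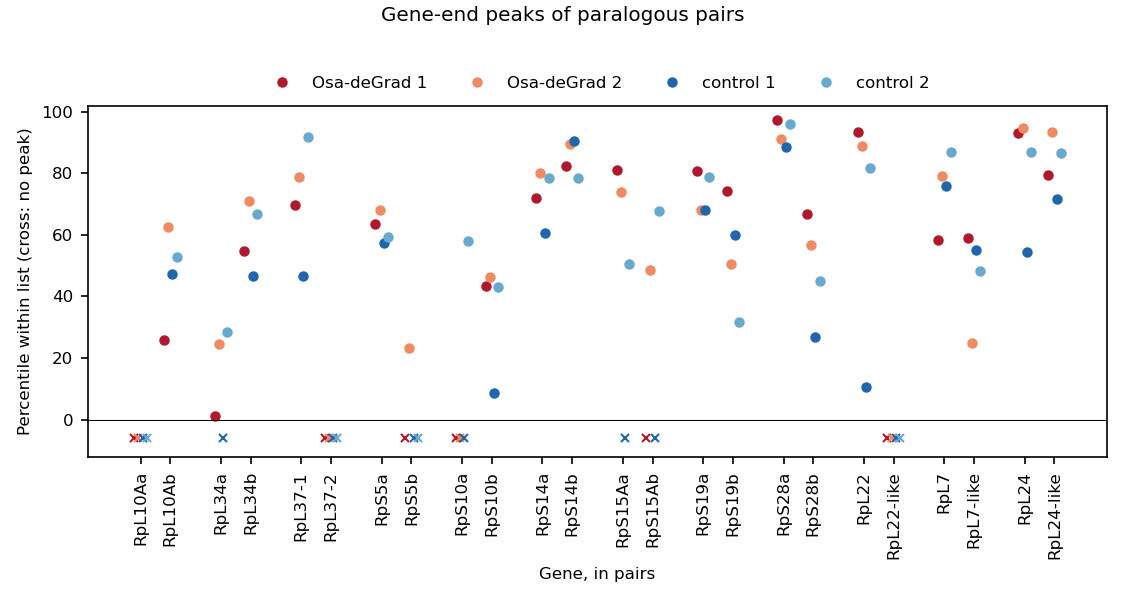
The percentile of the strongest gene-end peak within its own list (y axis) is plotted for both genes of 12 pairs (x axis), with 1 dot per library and a cross where a list had no peak. RpL10Aa, RpL37-2 and RpL22-like show crosses only, and their partners have a dot for every library.

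Peak rank spread widely among the members. Within the lists the median percentile of the strongest gene-end peak was 63.5 and 69.2 in the Osa-deGrad and 58.5 and 67.5 in the control libraries, against 60.3, 67.7, 57.5 and 62.6 for all protein-coding genes with a peak. A larger share of ribosomal protein genes than of all genes had a peak, but the medians of the ranks lay close together. Among the 66 genes with a peak in all lists, the median over the lists ran from 33.4 to 97.0 and lay above 50 for 55. In Osa-deGrad 1 and 2 and control 1 and 2, 7, 14, 3 and 6 members ranked above 90. These are 8.86%, 16.3%, 4.35% and 6.98% of those with a peak, against 10.3%, 14.5%, 8.95% and 11.5% of all genes with a peak, so high ranks were no more frequent than over all genes except in Osa-deGrad 2.

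By the median over the lists, the highest rank belonged to sta (X, 1481797 to 1483413), which encodes the small-subunit protein related to the laminin receptor. It ranked at 97.0 and 98.4 in the Osa-deGrad libraries and 91.9 and 96.9 in the controls, and the authors' fold enrichment was 12.9, 11.3, 10.6 and 12.5. Its summits lay 16 to 48 bp from its upper end, with an end of inc 48 to 114 bp away. All 4 libraries placed sta in the top 10% of their lists, although single libraries ranked another member higher, RpS4 in Osa-deGrad 1, RpL27A in Osa-deGrad 2 and RpL8 in control 1. RpS28a came next by the median, at 93.5, followed by RpS4 (3L, 13041756 to 13044234), a small-subunit gene, with 98.9, 94.2, 87.3 and 89.2 in the 4 libraries. In control 1 its strongest peak was at the other end, 6 bp from Syx13.

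The large-subunit genes with the highest medians were RpL11, RpL24 and RpL27A. RpL11, which binds the 5S ribosomal RNA together with RpL5, ranked at 96.6 and 95.9 in the Osa-deGrad libraries and 59.2 and 86.0 in the controls. RpL24 (2L, 13393687 to 13395131) ranked at 93.1, 94.8, 54.5 and 87.0, and RpL27A (2L, 4457186 to 4458364) at 87.6, 98.6, 57.5 and 91.6. For all 3 genes control 1 gave the lowest rank of the 4 libraries. RpL5, the partner of RpL11, was open at lower ranks, with a median of 48.7.

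The lowest ranks among genes open in all lists included RpS28-like at 11.6 to 53.1, whose summits were 6 to 75 bp from numb, a regulator of Notch. RpS12 was low in the Osa-deGrad libraries, at 0.276 and 13.6, and not in the controls, at 72.8 and 55.9. RpL10, which is needed for subunit joining, ranked at 58.4, 34.6, 24.8 and 36.0 in Osa-deGrad 1 and 2 and control 1 and 2. RpL39, a small protein of the exit tunnel, ranked at 44.8, 38.7, 8.21 and 49.0, and RpL7A at 26.3, 54.2, 26.1 and 55.2. Some members with missing peaks ranked lower still, among them RpL21 at 14.1 and 0.827 in the 2 lists that held it.

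**Figure D4:**
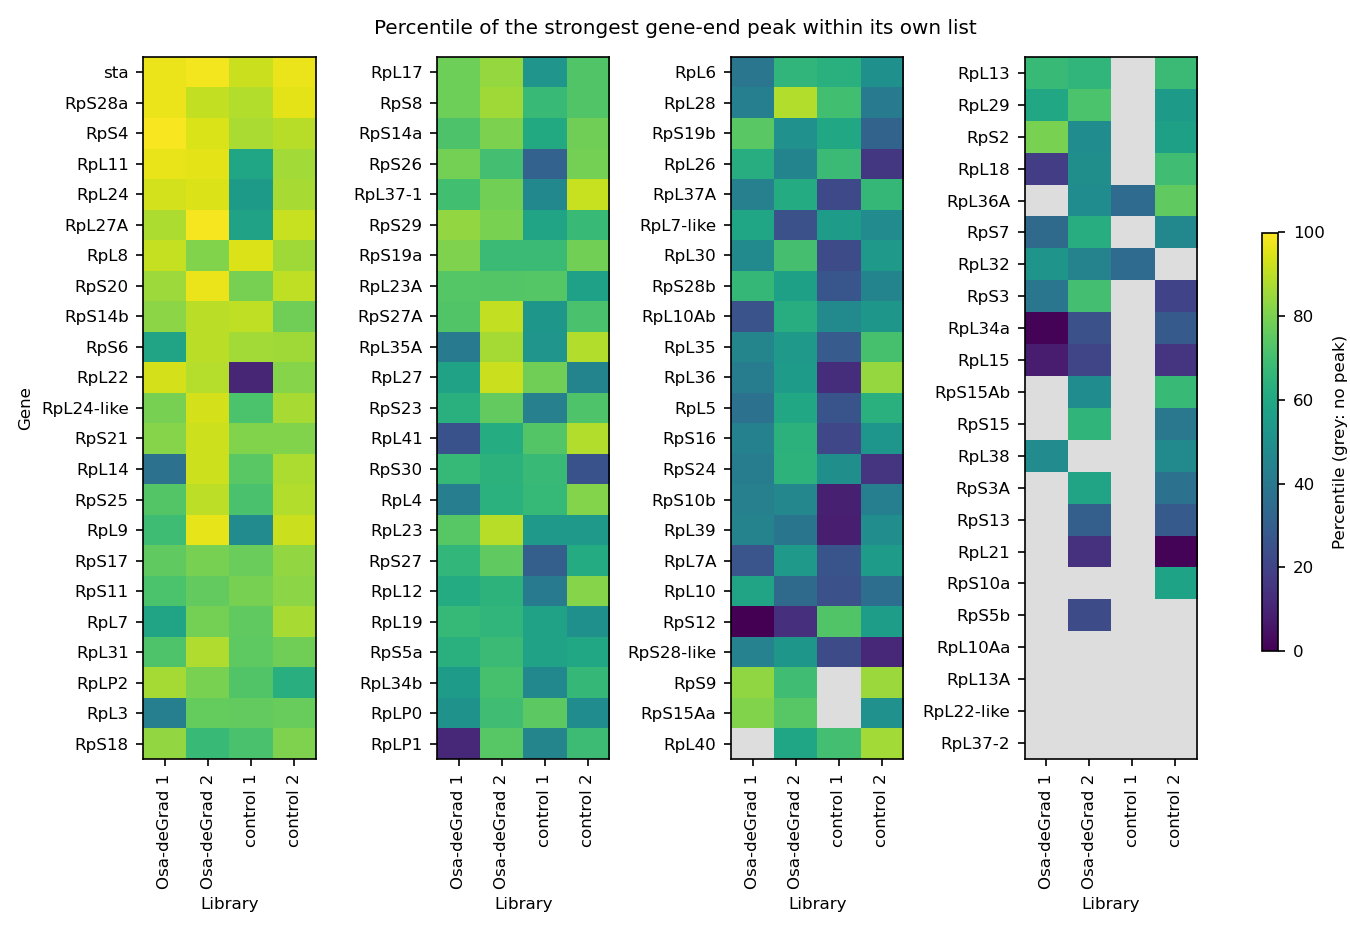
Each row is 1 gene of the set (91 drawn) and each column 1 library, and colour gives the percentile of the strongest gene-end peak within its own list (0 to 100), with grey where no peak was called. The 4 genes at the foot of the last panel, RpL10Aa, RpL13A, RpL22-like and RpL37-2, are grey in every library, and sta at the head of the first panel ranks above 90 in all 4.

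The width of the peaks varied with the list as well as with the gene. The median width of the strongest peak was 209 and 239.5 bp in the Osa-deGrad and 183 and 215 bp in the control libraries, against 213, 247, 201 and 235 bp over all protein-coding genes with a peak. RpLP2, which encodes a stalk protein that recruits translation factors, had the widest peaks by the median over the lists, of 718 and 243 bp in the Osa-deGrad libraries and 388 and 663 bp in the controls. In Osa-deGrad 1 and control 1 the RpLP2 summits lay 438 and 439 bp from the gene, and nearer to Cdk4, at 243 and 242 bp. In Osa-deGrad 2 the peak at RpL37-1 was wider, at 778 bp, and in control 1 that at RpS4, at 525 bp. That RpL37-1 summit lay 429 bp from the gene and 141 bp from CG9095, and that RpS4 peak was the one beside Syx13. RpS28a had 531, 456, 472 and 454 bp in the same order. RpL19 had 467, 665, 391 and 169 bp, and sta 467, 427, 307 and 352 bp. The RpS28a peaks, and the RpL19 peaks of Osa-deGrad 1 and control 1, were not nearest to the gene's own end. The other stalk genes had the narrow peaks, with 138, 158, 198 and 145 bp at RpLP0 and 125, 171, 145 and 211 bp at RpLP1. The 158 bp peak, in Osa-deGrad 2, lay 54 bp from CG7130, and the peak nearest to the own end of RpLP0 there had 140 bp. The 211 bp peak, in control 2, lay 19 bp from CG13690, and the peak nearest to the own end of RpLP1 there had 171 bp. RpL36 and RpL34b were as narrow, with medians of 158 and 163 bp over the lists. The RpL34b peaks measured here were those beside CG34117.

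Ribosomal protein genes often host snoRNA genes in their introns. Here 29 of the 92 had a snoRNA gene within their span, against 96 of all 13962 protein-coding genes. Whether it lay in an intron or on the same strand was not tested. Of these 29 genes, 23 (79.3%) had a peak in all lists, against 43 of the 63 other members (68.3%). The 29 genes were also longer, with a median of 1792 against 1132 bp. RpS5a held the most, with 14 snoRNA genes inside it. By chromosome, 14 of 15 members on X had a peak in all lists, 13 of 19 on 2L, 13 of 20 on 2R, 11 of 14 on 3L and 15 of 23 on 3R, while RpS3A, on chromosome 4, had peaks in the replicate 2 lists alone. No share of all protein-coding genes by chromosome stands beside these counts, so they show no trait of the members on X.

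The comparison between genotypes asked whether these genes kept their open chromatin when Osa was targeted. No gene was specific to a genotype. With a peak in both lists of Osa-deGrad and in no control list there were 0 of 92 genes, against 1.15% of all protein-coding genes, and in the reverse direction 0, against 0.473%. At those background shares, 0 of 92 is not a result about these genes. By peaks nearest to the gene's own end, RpL32 was specific to Osa-deGrad (background 1.58%) and RpL14 to the control (background 0.766%). Counting the libraries, 79 and 86 of the 92 genes had a peak in the Osa-deGrad libraries (89.7% ± 5.38, SD, n = 2) and 69 and 86 in the controls (84.2% ± 13.1, SD, n = 2). The shares over all protein-coding genes were 47.3% and 56.8% in Osa-deGrad libraries and 41.9% and 54.7% in controls. The groups overlapped and the difference of 5.43 points was smaller than the spread between replicates. With 2 libraries against 2 the smallest two-sided p of an exact permutation test is 0.333, so that test could not reach significance here, and no other was run.

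The size and sign of that difference depended on which control library was kept. Between the replicate 1 libraries the share was 10.9 points higher in Osa-deGrad, and between the replicate 2 libraries the difference was 0. Without control 1 it was -3.80 points and without control 2 14.7 points. Without Osa-deGrad 1 it was 9.24 and without Osa-deGrad 2 1.63 points. Of the 14 genes missing in a single list, 11 were missing in control 1, 2 in Osa-deGrad 1, 1 in control 2 and 0 in Osa-deGrad 2. Among the 11 were RpS2, RpS3, RpS7, RpS9, RpL13, RpL15 and RpL29. Those missing in Osa-deGrad 1 were RpL40, made as a fusion with ubiquitin, and RpL36A, and RpL32 was missing in control 2. Of the 6 genes in exactly 2 lists, 5 were in both replicate 2 lists, the longer ones, and the other was RpL38.

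Without control 2, 11 genes would count as specific to Osa-deGrad, the same 11 that were missing in control 1 alone. In all, 18 members had a peak in control 2 and not in control 1, as did 2114 of the 13962 protein-coding genes. When all lists were cut to the 13953 peaks of the shortest, RpL15 and RpS3 became specific to Osa-deGrad. With a window of 250 bp, RpL32 became specific to Osa-deGrad and RpL19 to the control. No share over all protein-coding genes stands beside the calls of these settings, so they are not a result about these genes.

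Single peaks, rather than genes, gave a few genotype-specific calls. Peaks of the 4 lists that overlapped by at least 1 bp were merged, and 163 such regions held a summit near a member, 133 of them in at least 2 lists. Of these 133, 5 regions (3.76%) were in both lists of Osa-deGrad and in no control list, against 3.53% of regions near gene ends and 3.35% of all regions. In the reverse direction there were 0, against 1.54% and 5.45%. The shares specific to Osa-deGrad lay close together. At RpL32, a gene widely used as an expression reference, the region lay 18 bp from the gene end (3R, 30046097 to 30046250). It ranked at 51.7 and 44.6 in the Osa-deGrad lists. At RpL13 the region lay 28 bp from the end (2L, 9967170 to 9967362, ranks 45.9 and 52.2), and control 2 held another peak at that gene. The regions at RpS3 and RpS10b lay 357 and 333 bp from the gene and ranked as low as 15.1 and 10.5. The last region, near RpS24, lay 16 bp from CG3732. These genes were named after their values were seen.

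The strength of the shared peaks was compared on ranks taken anew among the 7900 regions present in all 4 lists, so that every library was ranked over the same regions. In 75 of these regions a summit lay near a ribosomal protein gene, and 47 of them were closest to the member's own end. The median of the mean rank in Osa-deGrad minus the mean rank in the control was 7.74 points over the 75 regions, with quartiles of -5.06 and 16.5. Over all 3811 shared regions near gene ends it was 4.65, over the 52 at mitochondrial ribosomal protein genes 5.37, and over all 7900 regions 0.559. Ranks of the members were thus higher in Osa-deGrad to an extent that lay near the shift of gene-end regions at large. When gene-end regions were ranked among themselves the members' median was 2.95.

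Both Osa-deGrad libraries ranked above both control libraries in 23 of the 75 regions (30.7%), against 22.7% of shared gene-end regions and 18% of all shared regions. The reverse held in 7 (9.33%), against 10.5% and 17.6%. In the 47 regions closest to the member's own end the counts were 14 and 5. Leaving out 1 library moved the median to 11.9 without Osa-deGrad 1, 4.93 without Osa-deGrad 2, 4.16 without control 1 and 10.9 without control 2. It stayed above 0 in these 4 settings. No median over all gene-end regions stands beside these settings, so the sign is not a result about the members.

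The largest shift towards Osa-deGrad was at RpL22 (X, 765061 to 765311), a large-subunit gene. On the shared ranking it stood at 89.0 and 77.2 in the Osa-deGrad libraries and 4.27 and 61.5 in the controls. The control libraries lay further apart than the difference of 50.2 points between the means. RpL23 (22854164 to 22854519 on 2R) stood at 58.4 and 77.9 against 35.9 and 22.7, and RpL11 (19442122 to 19442443 on 2R) at 94.1 and 91.3 against 41.4 and 69.8. For RpL23 and RpL11 the differences between the means, 38.8 and 37.1 points, exceeded the distance between the libraries of either genotype. The fourth region, beside RpS14b, stood at 68.5 and 25.8 against 5.42 and 15.2 and lay 6 bp from Ubr3, a ubiquitin ligase gene.

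The largest shifts towards the control were at RpL41, RpS12, RpL4 and RpL3, all closest to the member's own end. RpS12 (3L, 13023142 to 13023408), a small-subunit gene required for the outcompetition of cells that have lost a ribosomal protein gene copy, stood at 0.0823 and 2.59 in the Osa-deGrad libraries and 57.9 and 24.4 in the controls. Both Osa-deGrad values were near the bottom of the shared ranking. RpL41, which encodes a very short basic peptide, stood at 10.9 and 35.6 against 58.6 and 75.04. RpL4, a protein lining the exit tunnel, stood at 12.0 and 37.8 against 50.6 and 61.03. RpL3, next to the site of peptide bond formation, stood at 23.3 and 32.4 against 62.4 and 52.1. The mean rank in Osa-deGrad minus that in the control was -43.6 points for RpL41, -39.8 for RpS12, -30.9 for RpL4 and -29.4 for RpL3. In size, each exceeded the distance between the libraries of either genotype. None of these shifts was tested.

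**Figure D5:**
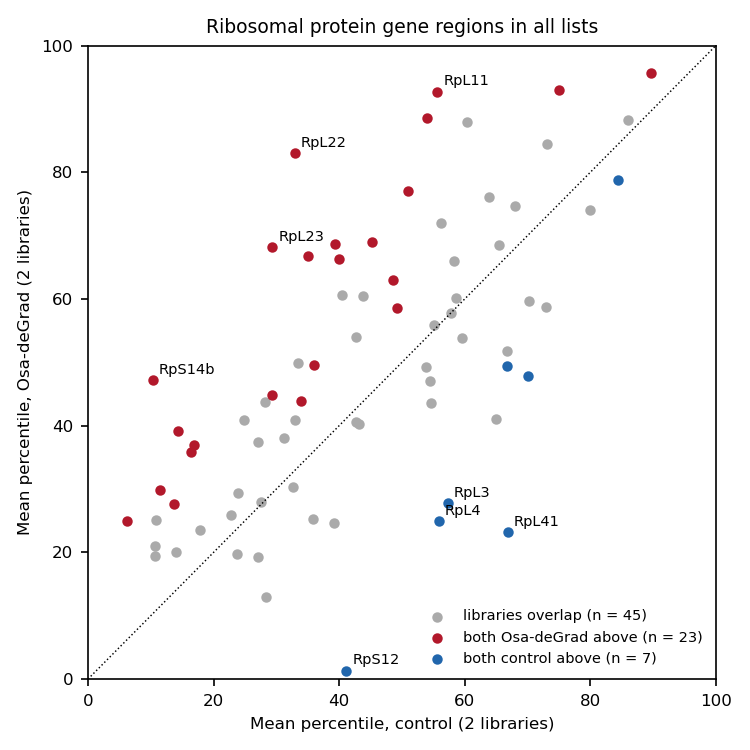
Each dot is 1 of the 75 regions near a ribosomal protein gene that are present in all lists, with its mean rank among all 7900 shared regions in the control (x axis, percentile) and in Osa-deGrad (y axis, percentile), and the dotted line marks equal ranks. Red marks the 23 regions where both Osa-deGrad libraries ranked above both controls and blue the 7 in the reverse order, among them RpS12 near the bottom.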

How the data were processed

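FAIRE-seq peak lists in narrowPeak format on dm6 were deposited, 1 per library. Per the submitters' processing notes the tools included MACS2 2.1.2, a peak caller, Bowtie2 2.3.4.1 and SAMtools 1.9. The threshold for a peak is not given in the sources used here. The authors' columns are the fold enrichment at the summit (a ratio), −log10 p and q values and the summit offset, a position and no score. The lists differed in length and in the level of −log10 q, so values were ranked within each list. The median −log10 q was 7.00 and 10.6 in Osa-deGrad 1 and 2 and 6.65 and 10.1 in control 1 and 2.

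Gene positions came from the RefSeq table of Release 6 plus ISO1 MT, which gives no strand. Coordinates are 1-based. Percentiles, merged regions and counts were computed in Python 3.11.15 with pandas 2.3.3, and presence and ranks were tested on simulated lists. Genes named were those without a peak, the 6 highest and 6 lowest in rank, the 4 widest and 4 narrowest, the 4 largest shifts each way and the written pairs. Others were named after their values were seen. The members, lists and rules were chosen with earlier results of these data known. The planned promoter motifs and start-site alternative were not run, since no sequence or strand was used here. The series' design text describes CUT&RUN on larval discs, and the sample labels were followed instead. Of the members, 1 is included in the counts and is not reported by name here.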

Additional observations from a re-analysis of the deposited data

How the results depend on the processing

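Of 95 alternative values, 59 stayed within 1.5 times the count, or within 1 SD of the replicates, and 36 moved. For the difference in share that SD was 9.99 points, larger than the difference of 5.43 points itself. Even -3.80 points without control 1 and 14.7 without control 2 were thus counted among the 59, which shows no stability of that difference. The cause was not tested, except where fewer peaks or libraries enter by construction. The planned start-site alternative was not run. With a −log10 q minimum of 10, 15 genes had a peak in all lists and 16 in none. At that minimum 2 (RpS30 and RpS19b) were specific to Osa-deGrad and 1 (RpS12) to the control. Of the 19 member regions then in all lists, 4 ranked higher in both Osa-deGrad libraries and 2 in both controls, against 23 and 7 of 75. With a minimum of 5 the specific genes numbered 1 (RpS28-like) and 1 (RpS12), and the regions 14 and 4 of 53. With a window of 250 bp, 7 genes had no peak and 1 was specific in each direction. With lists of equal length 2 were specific to Osa-deGrad. No share over all protein-coding genes stands beside the counts of these settings. With peaks nearest to the member's own end, chosen after seeing the data, 9 genes had none and 1 (RpL32 and RpL14) was specific in each direction. The Osa-deGrad summits of the same RpL14 region lay closer to Nelf-E. The median rank difference was 5.95 with fold enrichment ranked and 2.95 among gene-end regions.

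Leaving out 1 library in turn gave 66 to 77 genes in all lists, 4 to 5 in none, 0 to 11 specific to Osa-deGrad, 0 to 2 to the control, a difference in share of -3.80 to 14.7 points, a median rank difference of 4.16 to 11.9, and 31 to 42 and 14 to 22 non-overlapping regions, which 3 libraries give more easily by construction. Libraries of the same number share only a number, with a correlation of 0.116 between their deviations over 7900 regions. As a replicate block, the rank difference within the pairs was 8.54 and 9.92, and the difference in share 10.9 and 0 points.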
